A study of Mus musculus with 4 samples.

Results

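The genes of glycolysis and of the response to low oxygen were followed here as 33 genes, taken by symbol from the 35857 listed for each library, among them 17 glycolytic enzymes with lactate dehydrogenase, 7 targets of the hypoxia response that are not glycolytic enzymes, and 9 other members for transport and control, some of which are hypoxia targets too. They were measured in poly(A) RNA of glial progenitors formed by neural stem cells from the cerebral cortex of embryonic mice, collected 24 hr after glial differentiation was induced. Cells labelled Qk_KO were Qk-/- (2 libraries) and control cells were wild type (2 libraries), all of strain C57BL/6. Qk encodes Quaking, an RNA-binding protein of glia that acts on splicing, stability and localisation of mRNA. The sources used here do not state how the allele was made, which exons it lacks or the oxygen level of the cultures. Values are in TPM, a gene's share of all transcripts after correction for length, scaled to a fixed total in every library. Read depth cannot be had from this unit, is unknown here, and the precision is the spread between 2 libraries.

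Glycolysis splits glucose into pyruvate in the cytosol, and lactate dehydrogenase turns pyruvate into lactate and back. Most of its enzymes have a ubiquitous gene and tissue-restricted relatives, such as Aldoc in astrocytes and Eno2 in neurons. At low oxygen, prolyl hydroxylases no longer mark the HIF1 alpha protein for destruction, and HIF1 then raises many glycolytic genes together with genes of blood vessel growth, mitophagy and its own hydroxylases. HIF1 is controlled mainly at the level of its protein, which these data do not measure.

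Most glycolytic enzymes stood higher in Qk_KO glial progenitors, by small amounts, while the hypoxia targets went both ways. Tpi1, Pfkm and Ldhb rose 1.51- to 1.74-fold on the TPM + 1 scale, and Adm, the gene of the vasodilator peptide adrenomedullin, fell to 41.2% of its mean control TPM. Differences were tested on log2(TPM + 1), which understates the change of low genes, for 13260 genes averaging at least 1 TPM, of which 31 were members. Slc16a3 and Ankrd37 fell short of that mean and were not tested. Of the 31 members tested, 3 rose and 1 fell at an adjusted p of 0.05 (limma, Benjamini-Hochberg over all genes tested), against 3.24% of all genes tested, 1.83% higher and 1.42% lower. At an unadjusted p of 0.05 in limma, 13 members were higher and 4 lower, against 15.8% and 12.6% of all genes tested (28.4% in either direction). With 2 libraries against 2, an exact permutation test cannot go below 0.333, so each p rests on limma's pooling of the spread over genes.

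**Figure D1:**
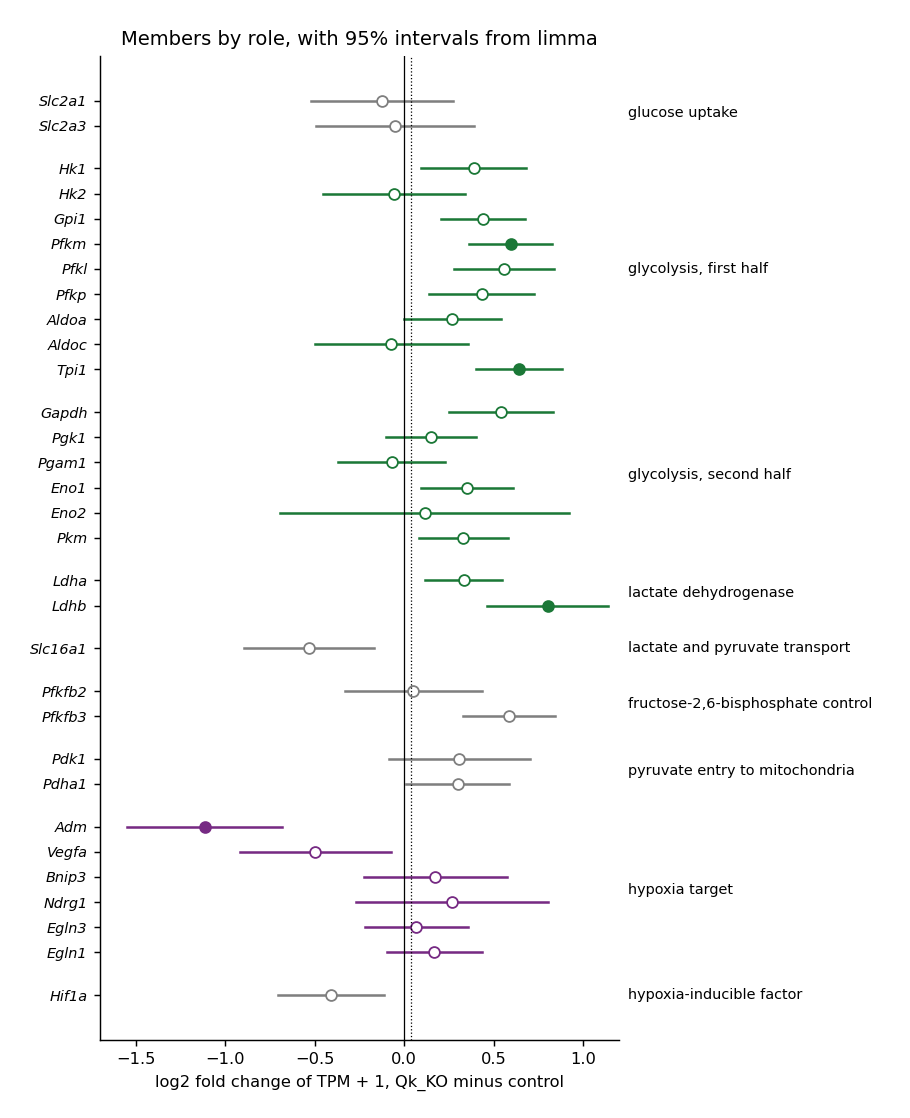
Log2 fold change of TPM + 1, Qk_KO minus control, for the 31 members tested, ordered by role from top to bottom. Bars are 95% intervals from limma, filled points passed an adjusted p of 0.05, green marks enzymes, purple hypoxia targets and grey other members, and the dotted line is the median of all genes tested at 0.04; 14 of 17 enzymes lie right of 0, and Adm lies farthest left at -1.11.

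The call of each of these 4 members rested on all 4 libraries. Adjusted p in limma with Benjamini-Hochberg adjustment was between 0.0681 and 0.0977 without Qk_KO replicate 1, between 0.0618 and 0.0918 without Qk_KO replicate 2, between 0.106 and 0.128 without control replicate 1 and between 0.249 and 0.277 without control replicate 2. It was between 0.139 and 0.143 with no filter on low genes and between 0.0668 and 0.0875 without limma's trend. All 4 kept their direction under each of these settings, which non-overlapping groups fix when a library is left out.

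Qk was at 36.1 and 43.7 TPM in the Qk_KO libraries and at 208 and 215 TPM in the control libraries. The 10 markers of neural stem cells and glial progenitors were present in all 4 libraries, which had 18846 to 19387 genes above 0 TPM. These markers summed to 7159 and 7116 TPM in Qk_KO and 7277 and 7012 TPM in control. Most of that sum was Vim and Fabp7. Vim was at 3373 and 2392 TPM in Qk_KO and 2370 and 2346 TPM in control. Fabp7 was at 2354 and 3144 TPM in Qk_KO and 3010 and 2957 TPM in control. Of the 10 markers 2 fell, Slc1a3 and Ptprz1, against 1.42% of all genes tested, and 0 rose. Whether the 2 libraries of a group stem from different cultures is not labelled, so p-values measure the spread between these libraries, and no batch is given. Xist, made by the inactive X of female cells, was at 0.04 and 62.5 TPM in Qk_KO and 62.2 and 57.6 TPM in control, and Eif2s3y, a Y-linked gene, at 35.4 and 0 TPM in Qk_KO and 0 and 0 TPM in control. By these genes Qk_KO replicate 1 came from male cells and the other 3 libraries from female cells, so the Qk_KO libraries are not repeats of 1 culture. The part of sex in the results was not tested. The X-linked members Pgk1 and Pdha1 had log2 fold changes of 0.05 and 0.21 without that library. In bulk RNA, fewer cells of a type and less RNA per cell cannot be told apart. Markers of other cells differed between the genotypes. The 13 neuronal markers summed to 1153 and 1225 TPM in Qk_KO and 829 and 615 TPM in control, 15 microglial and macrophage markers to 32.2 and 25.2 TPM in Qk_KO and 67.8 and 58.0 TPM in control, and 20 mitosis genes to 569 and 538 TPM in Qk_KO and 330 and 228 TPM in control. Of the microglial list 10 genes were tested, all with both Qk_KO values below both controls, against 27.5% of all genes tested, and 0 called. Of the 13 neuronal genes, all tested, Snap25 and Ina rose, and 11 log2 fold changes lay above 0 and 2 below. Both Qk_KO values lay above both controls for 6 of these 13, against 33.6% of all genes tested, and the groups overlapped for 7. Endothelial markers summed to 10.1 and 10.2 TPM in Qk_KO and 8.58 and 8.87 TPM in control, oligodendrocyte lineage markers to 586 and 675 TPM in Qk_KO and 728 and 657 TPM in control, and ependymal markers to 28.2 and 23.3 TPM in Qk_KO and 24.7 and 21.2 TPM in control. Pericyte and fibroblast markers summed to 4074 and 1888 TPM in Qk_KO and 1756 and 1624 TPM in control. Most of that sum was Acta2, at 3484 and 1604 TPM in Qk_KO and 1289 and 1130 TPM in control. Of the 7 pericyte and fibroblast genes tested, 0 were called, 6 had a log2 fold change below 0 and the median was -0.22. Erythroid markers were near 0, with 3 of 7 at 0 in all 4 libraries. The oligodendrocyte sum was mostly Olig1, at 493 and 546 TPM in Qk_KO and 544 and 410 TPM in control. Of the 8 genes of that list tested, Pdgfra fell, 7 had a log2 fold change below 0 and the median was -1.22. Both Qk_KO values lay below both controls for 6 of the 8, against 27.5% of all genes tested, with Sox10 at 2.38 and 7.55 TPM in Qk_KO and 17.2 and 40.8 TPM in control. Folr1 rose in the ependymal list. The part of these cells and of cycling cells in the results on glycolysis and hypoxia genes was not tested.

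The HIF complex binds DNA at a core of ACGTG or GCGTG. The promoters of the 4 members that passed the test (Tpi1, Pfkm, Ldhb and Adm) are shown with that of Ldha, a textbook HIF1 target, so that the letters can be read beside the change in RNA. Each is 300 bases, from 250 before the most upstream start listed for the gene in a RefSeq promoter set to 50 from it on (GRCm38.p6). The Ldha gene, chr7:46842274-46855627, begins upstream of its window, so the start used is not its first. The same holds for other members counted below, among them Gapdh, Aldoa, Hif1a, Pfkfb2 and Slc16a3. Sequences are written 5′ to 3′ on the gene's strand. Capitals mark ACGTG on either strand (CACGT when read on this strand, and CACGTG where the core lies on both).
Tpi1, chr6:124814109-124814408, minus strand: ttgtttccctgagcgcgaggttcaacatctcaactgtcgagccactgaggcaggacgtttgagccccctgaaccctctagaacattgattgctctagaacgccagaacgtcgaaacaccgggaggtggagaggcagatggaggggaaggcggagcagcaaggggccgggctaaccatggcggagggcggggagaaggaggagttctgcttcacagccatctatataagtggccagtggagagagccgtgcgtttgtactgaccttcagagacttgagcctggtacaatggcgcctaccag
Pfkm, chr15:98092339-98092638, plus strand: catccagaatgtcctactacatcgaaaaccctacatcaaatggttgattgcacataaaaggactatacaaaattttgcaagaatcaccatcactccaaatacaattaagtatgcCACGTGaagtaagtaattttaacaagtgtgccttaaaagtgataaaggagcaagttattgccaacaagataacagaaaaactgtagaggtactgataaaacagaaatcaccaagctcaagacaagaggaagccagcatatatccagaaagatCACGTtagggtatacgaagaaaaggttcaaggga
Ldhb, chr6:142507908-142508207, minus strand: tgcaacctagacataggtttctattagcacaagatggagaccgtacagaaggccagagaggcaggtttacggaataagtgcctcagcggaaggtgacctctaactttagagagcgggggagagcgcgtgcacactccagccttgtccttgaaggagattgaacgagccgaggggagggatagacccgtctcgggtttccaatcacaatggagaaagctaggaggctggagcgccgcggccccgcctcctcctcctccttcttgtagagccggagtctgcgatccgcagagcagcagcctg
Adm, chr7:110627407-110627706, plus strand: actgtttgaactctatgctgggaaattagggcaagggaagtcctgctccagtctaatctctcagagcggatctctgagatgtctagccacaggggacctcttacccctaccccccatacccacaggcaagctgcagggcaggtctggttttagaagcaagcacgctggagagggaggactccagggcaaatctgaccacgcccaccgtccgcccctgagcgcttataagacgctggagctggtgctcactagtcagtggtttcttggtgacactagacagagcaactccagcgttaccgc
Ldha, chr7:46845554-46845853, plus strand: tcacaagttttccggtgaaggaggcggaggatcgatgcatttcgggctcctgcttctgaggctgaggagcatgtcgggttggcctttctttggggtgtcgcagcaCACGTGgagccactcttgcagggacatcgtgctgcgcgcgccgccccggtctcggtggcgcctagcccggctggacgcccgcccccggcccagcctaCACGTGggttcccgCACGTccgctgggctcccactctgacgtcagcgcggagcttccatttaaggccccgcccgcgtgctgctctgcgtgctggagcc

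Ldha holds CACGTG from -145 and -48 and CACGT from -34, and Pfkm holds CACGTG from -136 and CACGT from 17, counted from the start used. The set lists 4 starts for Pfkm, 2 for Ldha and 1 each for Tpi1, Ldhb and Adm. Only the window at the most upstream start was read, and which start these cells use was not measured. Tpi1, Ldhb and Adm hold no ACGTG in this window. Adm holds the other core, GCGTG, at 2 places and Ldhb at 1, and Tpi1 at 0. Over the 31 members with a promoter listed, 16 (51.6%) held ACGTG on either strand, against 25.7% of the 10411 tested genes with a promoter listed and 19.6% of all 27025 promoters of this length. By class the share was 41.2% of 17 enzymes and 66.7% of 6 hypoxia targets and 62.5% of the 8 others. GCGTG was in 54.8% of the members' promoters and in 52.8% of those of tested genes. A match is a description of letters in 1 window and not a binding site. Slc2a3 and Ndrg1 are not in these counts.

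Quaking binds RNA at ACTAAC or ACTAAT (written as DNA). In the longest annotated 3′ UTR of each gene (GENCODE M21, sense strand), 10 of 33 members (30.3%) held such a motif, against 35.2% of 12269 tested genes with a 3′ UTR. The enzymes' 3′ UTRs were short, with a median of 683 bases against 1258 bases for tested genes, and 3 of the 17 (17.6%) held the motif, those of Hk2, Eno2 and Pfkm. It was in 2 of 7 hypoxia targets (28.6%) and in 5 of 9 other members (55.6%), whose median 3′ UTR was longer, at 2736 bases. Per kilobase of 3′ UTR the members held 0.240 motifs and tested genes 0.342. The sites shown are those in the 6 members with the largest positive and the 6 with the largest negative log2 fold change, with 30 bases each, the coordinates of the motif on GRCm38 and the motif in capitals.
Pfkm, chr15:98132421-98132426, plus strand: aagtgtaactacACTAATaaatgccagctg
Slc16a1, chr3:104656141-104656146, plus strand: ttgcttgaggtaACTAACcttaatcttgtt
Slc16a1, chr3:104657311-104657316, plus strand: gtcttcattcttACTAATttttattttatt
Hif1a, chr12:73946842-73946847, plus strand: gttgggtctaacACTAACtgtactgttttg
Vegfa, chr17:46017849-46017854, minus strand: accattgaaaccACTAATtctgtccccagg
Slc2a1, chr4:119136854-119136859, plus strand: ggccaaggacacACTAATaccgaactctga

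Tpi1, Ldhb and Adm held no such motif in their 3′ UTR. Whether Quaking bound any of these sites was not measured.

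Neither gene for the entry of glucose showed a called change in RNA. Slc2a1, the main glucose transporter of glia and of the blood-brain barrier, was at 26.6 and 20.2 TPM in Qk_KO and 24.7 and 26.0 TPM in control. Slc2a3, the high-affinity transporter of neurons, was at 22.6 and 29.3 TPM in Qk_KO and 23.8 and 29.9 TPM in control. The groups overlapped for both, and the 95% intervals of the log2 fold changes ran from -0.52 to 0.27 and from -0.49 to 0.39 (limma).

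Among the hexokinases, which trap glucose as its phosphate, Hk1 was at 100.04 and 117 TPM in Qk_KO and 86.5 and 78.3 TPM in control, with the groups apart. Its log2 fold change was 0.39 ± 0.12 (SE, limma, Benjamini-Hochberg adjusted p = 0.109). Hk2, the inducible HIF1 target of the family, was far lower, at 9.20 and 7.71 TPM in Qk_KO and 8.31 and 9.32 TPM in control, with the groups overlapping. Gpi1, which converts glucose phosphate to fructose phosphate, was at 501 and 454 TPM in Qk_KO and 353 and 349 TPM in control, apart by more than the spread of either group, with a log2 fold change of 0.44 ± 0.09 (SE, limma, Benjamini-Hochberg adjusted p = 0.0622).

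All 3 phosphofructokinase genes, which encode the enzyme of the committed step, stood higher in both Qk_KO libraries than in both controls. Of all genes tested 33.6% did so. Pfkm, the muscle-type subunit and here the most abundant, was at 197 and 206 TPM in Qk_KO and 138 and 127 TPM in control. It averaged 201 ± 6.43 TPM in Qk_KO and 133 ± 7.46 TPM in control (SD, n = 2 each), a log2 fold change of 0.60 ± 0.09 (SE, limma, Benjamini-Hochberg adjusted p = 0.0429). Pfkm (Entrez gene 18642) lies at chr15:98092589-98132447 on the plus strand of GRCm38. Pfkl, the liver type, was at 36.3 and 38.1 TPM in Qk_KO and 26.2 and 23.7 TPM in control. Pfkp, the platelet type, was at 76.7 and 90.9 TPM in Qk_KO and 63.3 and 59.9 TPM in control. Neither was called, at adjusted p of 0.0567 and 0.0902 (limma, Benjamini-Hochberg). At a filter of a mean of at least 5 TPM Pfkl passed (Benjamini-Hochberg adjusted p = 0.0477 in limma).

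Aldolase cuts the sugar in 2. Aldoa, the ubiquitous form, was at 1591 and 1376 TPM in Qk_KO and 1238 and 1217 TPM in control, apart, at an adjusted p of 0.177 in limma (Benjamini-Hochberg). Aldoc, the astrocyte form, was at 67.9 and 73.9 TPM in Qk_KO and 87.9 and 63.1 TPM in control, with the control libraries on both sides of the Qk_KO ones. Tpi1, triosephosphate isomerase, was at 471 and 521 TPM in Qk_KO and 311 and 323 TPM in control. It averaged 496 ± 35.3 TPM in Qk_KO and 317 ± 8.90 TPM in control (SD, n = 2 each), a log2 fold change of 0.64 ± 0.10 (SE, limma, Benjamini-Hochberg adjusted p = 0.0426). Tpi1 (Entrez gene 21991) lies at chr6:124810586-124814158 on the minus strand, near Eno2 and Gapdh on the same strand at chr6:124760053-124769673 and chr6:125161852-125166467.

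**Figure D2:**
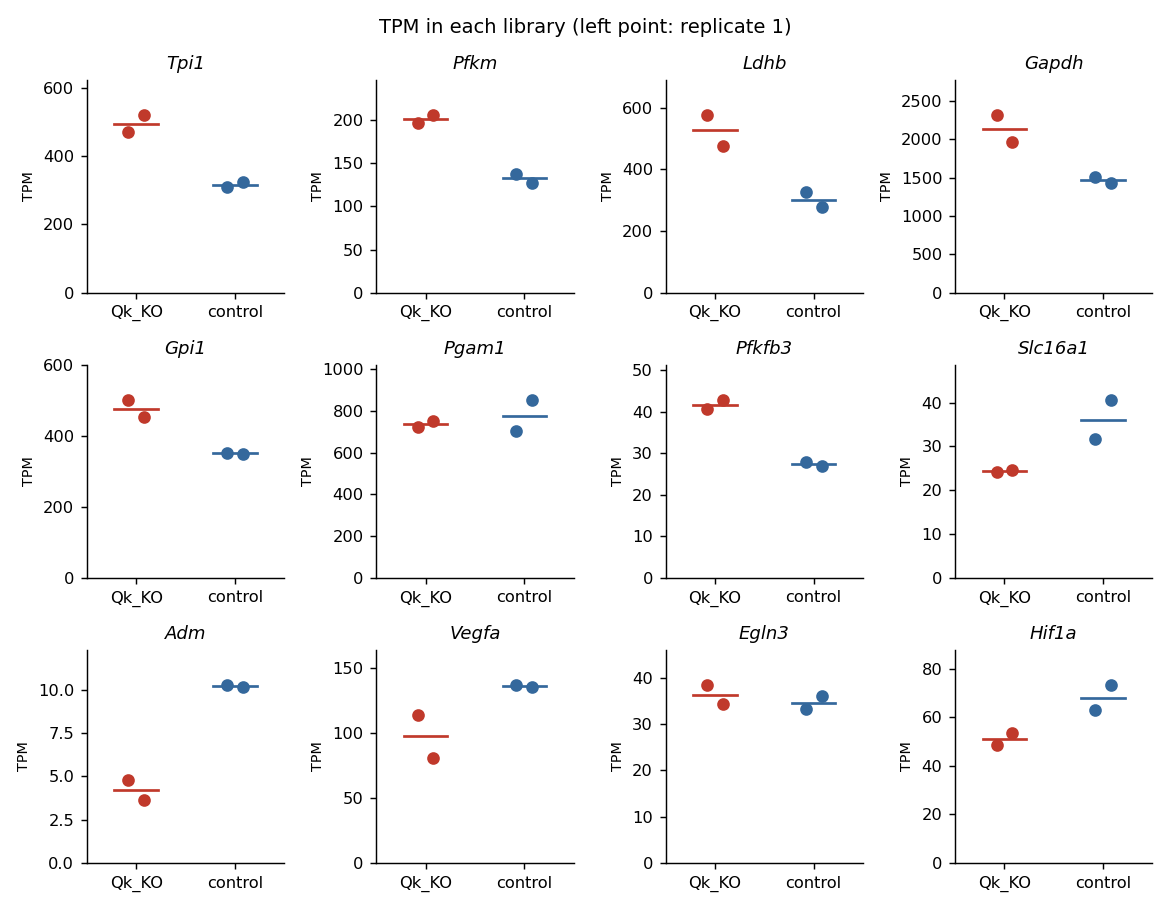
TPM of 12 members in each library, on linear axes that start at 0, with Qk_KO (red) left of control (blue), replicate 1 left of replicate 2 within a group and a line at the mean of 2 libraries. The groups lie apart for Tpi1, Pfkm, Ldhb, Gapdh, Gpi1 and Pfkfb3 with Qk_KO higher, and for Slc16a1, Adm, Vegfa and Hif1a with Qk_KO lower, while Pgam1 and Egln3 overlap.

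In the energy-yielding steps that follow, 4 of 6 enzymes lay higher in both Qk_KO libraries, against 33.6% of all genes tested, and none was called. Gapdh, often used as a reference gene for expression, was at 2312 and 1962 TPM in Qk_KO and 1502 and 1427 TPM in control. Its log2 fold change was 0.54 ± 0.12 (SE, limma, Benjamini-Hochberg adjusted p = 0.0630), or 1.45-fold on the TPM + 1 scale. Eno1, the ubiquitous enolase and the most abundant member, was at 2505 and 2394 TPM in Qk_KO and 2019 and 1829 TPM in control, at an adjusted p of 0.104 in limma (Benjamini-Hochberg). Pkm, the pyruvate kinase gene whose splice forms a TPM per gene does not separate, was at 907 and 1017 TPM in Qk_KO and 775 and 753 TPM in control.

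The other 3 genes of these steps had the smallest differences. Pgk1, phosphoglycerate kinase, was at 472 and 413 TPM in Qk_KO and 397 and 399 TPM in control, a log2 fold change of 0.15 with a 95% interval from -0.10 to 0.40 (limma). Pgam1, phosphoglycerate mutase, was at 722 and 753 TPM in Qk_KO and 704 and 851 TPM in control, so that control replicate 2 was highest and the groups overlapped. Eno2, the neuronal enolase, was at 17.7 and 37.0 TPM in Qk_KO and 23.6 and 23.7 TPM in control. The Qk_KO libraries lay on either side of the controls there, and the interval of the log2 fold change was the widest of the members tested, from -0.69 to 0.92 (limma).

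Lactate dehydrogenase is a tetramer of the A and B subunits, and B is the form of tissues that use lactate. Ldhb rose, at 575 and 477 TPM in Qk_KO and 325 and 276 TPM in control. It averaged 526 ± 69.8 TPM in Qk_KO and 301 ± 34.3 TPM in control (SD, n = 2 each), a log2 fold change of 0.80 ± 0.14 (SE, limma, Benjamini-Hochberg adjusted p = 0.0479), the largest increase among the members tested. Ldhb (Entrez gene 16832) lies at chr6:142490249-142507957 on the minus strand. Ldha was at 973 and 976 TPM in Qk_KO and 765 and 783 TPM in control, apart by more than the spread of either group, at an adjusted p of 0.0826 in limma (Benjamini-Hochberg).

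Within the families of related genes, the groups lay apart in the shares of Ldhb, Pfkfb3, Hk1 and Pfkm, higher in Qk_KO, and of Pfkp, lower. In a family of 2 genes the other share mirrors the first. By TPM of single genes, the groups lay apart for 61.1% of all genes tested. Ldhb made up 37.2% and 32.8% of the summed Ldha and Ldhb TPM in Qk_KO and 29.8% and 26.1% in control, so the B share was higher in both Qk_KO libraries. Pfkfb3 made up 68.5 ± 2.89% of the summed Pfkfb2 and Pfkfb3 TPM in Qk_KO and 59.8 ± 0.943% in control (SD, n = 2 each), a gap larger than the spread of either group. Hk1 made up 91.6% and 93.8% of the summed hexokinase TPM in Qk_KO and 91.2% and 89.4% in control. Pfkm held 63.5% and 61.5% of the phosphofructokinase TPM in Qk_KO and 60.7% and 60.4% in control. Pfkp held 24.8% and 27.2% of it in Qk_KO and 27.8% and 28.4% in control, and the groups overlapped for Pfkl. Slc2a1 held 54.1% and 40.8% of the summed Slc2a1 and Slc2a3 TPM in Qk_KO and 50.9% and 46.5% in control, with the groups overlapping. Aldoc held 4.09% and 5.09% of the aldolase TPM in Qk_KO and 6.63% and 4.93% in control, and Eno2 held 0.703% and 1.52% of the enolase TPM in Qk_KO and 1.15% and 1.28% in control, so the groups overlapped for both. These shares are descriptions with no test.

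**Figure D3:**
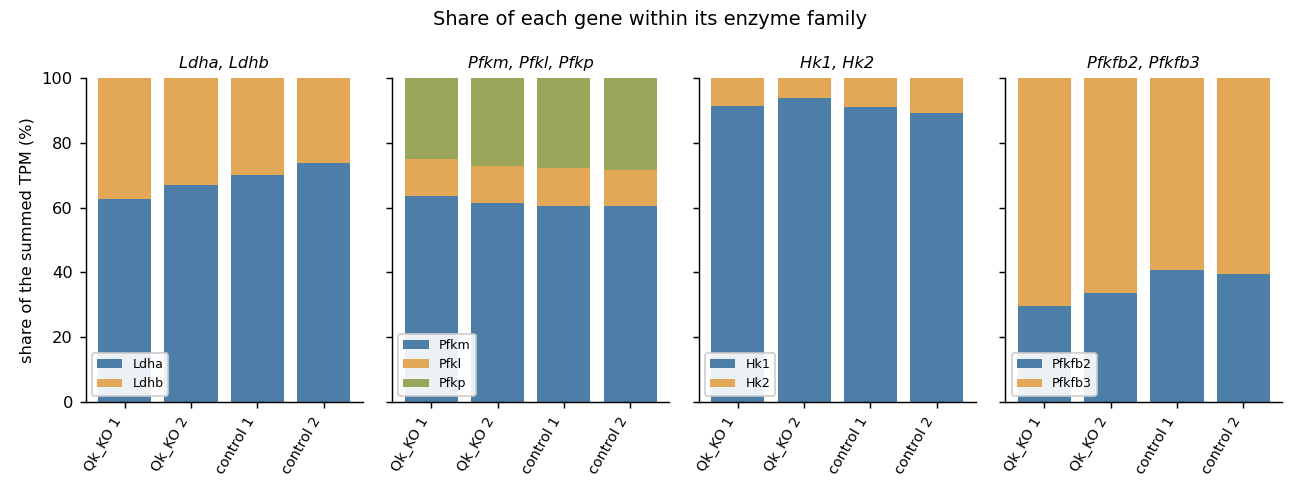
Share of the summed TPM of each enzyme family held by each gene, in percent, in each library, with Qk_KO replicates left of control replicates. The Ldhb share is 37.2% and 32.8% in Qk_KO and 29.8% and 26.1% in control, and the Pfkfb3 share is 70.5% and 66.4% in Qk_KO and 59.1% and 60.4% in control.

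The 17 enzymes were all tested. As a class they had 3 higher, 0 lower and 14 not called, against 1.83% higher and 1.42% lower over all genes tested. Of their log2 fold changes 14 of 17 lay above 0, against 54.4% of all genes tested. Both Qk_KO values lay above both control values for 13 of the 17, against 33.6% of all genes tested, and below both for 0, against 27.5%. The median log2 fold change was 0.35, beside 0.04 over all genes tested. The summed enzymes made up 1.15% and 1.09% of all transcripts in Qk_KO and 0.882% and 0.859% in control. Genes of a pathway vary together between libraries, so these counts are not a test. After correction for a GC trend in each library, added once the data had been seen, the median was 0.26, and it lay between 0.32 and 0.42 when 1 library was left out. Reads of Gapdh could be shared with 77 GENCODE genes at least 95% identical over at least 200 bases. The 3 of these listed in the tables summed to 24.9 and 23.7 TPM in Qk_KO and 16.2 and 21.9 TPM in control. The Eno1 copy Eno1b was at 21.4 and 17.6 TPM in Qk_KO and 15.2 and 11.98 TPM in control. Near copies by the same rule, not listed in the tables, exist for 9 further members, Tpi1, Ldhb, Gpi1, Pgk1, Pgam1, Pkm, Ldha, Pfkfb2 and Bnip3, so the values of all 11 carry that uncertainty, including those of Tpi1 and Ldhb, which were called.

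Control points outside the enzyme chain were mixed. Pfkfb3, which makes fructose-2,6-bisphosphate, the activator of phosphofructokinase, was at 40.8 and 42.8 TPM in Qk_KO and 28.0 and 27.0 TPM in control. Its log2 fold change was 0.59 (SE 0.10), just outside the threshold at an adjusted p of 0.0505 in limma (Benjamini-Hochberg), and between 0.0423 and 0.285 over the alternatives. Pfkfb2, the isoform of heart, was at 17.0 and 21.6 TPM in Qk_KO and 19.4 and 17.7 TPM in control, with the groups overlapping. Pdk1, a kinase that shuts pyruvate dehydrogenase and a HIF1 target, was at 8.27 and 7.29 TPM in Qk_KO and 5.77 and 6.41 TPM in control. Pdha1, the subunit that it phosphorylates, was at 168 and 148 TPM in Qk_KO and 120.2 and 136 TPM in control. Both pairs lay apart by little, with adjusted p of 0.262 and 0.163 (limma, Benjamini-Hochberg).

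Slc16a1, the monocarboxylate transporter MCT1 that carries lactate and pyruvate across the membrane, stood lower, at 24.3 and 24.7 TPM in Qk_KO and 31.7 and 40.5 TPM in control. It was the only member outside the hypoxia targets, besides Hif1a, with both Qk_KO values below both controls, at a log2 fold change of -0.53 ± 0.15 (SE, limma, Benjamini-Hochberg adjusted p = 0.0915). Slc16a3, the transporter MCT4 of lactate export and a HIF1 target, was at 0.28 and 0.40 TPM in Qk_KO and 0.25 and 0.48 TPM in control, at the bottom of the members.

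Hif1a, the regulated subunit of HIF1, was at 48.4 and 53.5 TPM in Qk_KO and 63.2 and 73.1 TPM in control, apart but not called, with a log2 fold change of -0.41 ± 0.12 (SE, limma, Benjamini-Hochberg adjusted p = 0.101). Adm fell, at 4.77 and 3.65 TPM in Qk_KO and 10.3 and 10.2 TPM in control. It averaged 4.21 ± 0.792 TPM in Qk_KO and 10.2 ± 0.0501 TPM in control (SD, n = 2 each), a log2 fold change of -1.11 ± 0.17 (SE, limma, Benjamini-Hochberg adjusted p = 0.0429). Adm (Entrez gene 11535) lies at chr7:110627657-110629820 on the plus strand. Vegfa, the endothelial growth factor, was at 114 and 80.9 TPM in Qk_KO and 136 and 135 TPM in control, and the 2 Qk_KO libraries differed more than the controls. Its log2 fold change was -0.50 ± 0.17 (SE, limma, Benjamini-Hochberg adjusted p = 0.132).

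The remaining hypoxia targets had no called change. Bnip3, a mitophagy receptor, was at 27.4 and 22.2 TPM in Qk_KO and 19.7 and 23.9 TPM in control. Egln3, the prolyl hydroxylase PHD3 and among the most oxygen-responsive HIF1 targets, was at 38.3 and 34.3 TPM in Qk_KO and 33.1 and 36.0 TPM in control. The groups overlapped for both, and the interval of the log2 fold change of Egln3 ran from -0.22 to 0.35 (limma). Egln1, the main oxygen sensor PHD2, was at 75.2 and 67.3 TPM in Qk_KO and 65.5 and 60.8 TPM in control. Ndrg1, a stress-responsive gene, was at 3.49 and 3.48 TPM in Qk_KO and 3.27 and 2.25 TPM in control. Ankrd37 was at 0.62 and 0.42 TPM in Qk_KO and 0.76 and 1.27 TPM in control and was too low to be tested. The groups lay apart for Egln1 and Ndrg1, with Qk_KO higher, and for Ankrd37, with Qk_KO lower.

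Set against each other, the enzymes stood higher than the hypoxia targets in their median change. Of the 7 hypoxia targets 6 were tested, with 0 higher, 1 lower and 5 not called, against 1.83% higher and 1.42% lower over all genes tested. Of the 6 log2 fold changes 4 were above 0, against 54.4% of all genes tested, and the median was 0.12. The groups lay apart for 4 of the 6, 2 higher and 2 lower, against 61.1% of all genes tested. The enzyme median less the hypoxia target median was 0.23 on the log2 scale. Taken per library, as medians of values centred on each gene's mean, that difference was 0.05 and 0.22 in Qk_KO and -0.16 and -0.26 in control. The groups did not overlap, as for 61.1% of single genes tested, so this is a description with no test. Medians taken within libraries need not give the same gap as the 0.23 from fold changes. Leaving out Qk_KO replicate 1 gave 0.40, Qk_KO replicate 2 0.13, control replicate 1 0.40 and control replicate 2 0.22. The hypoxia target median moved most, to 0.01 when Qk_KO replicate 1 was left out, 0.20 when Qk_KO replicate 2 was, 0.02 when control replicate 1 was and 0.07 with no filter, where all 7 enter. With 6 genes that run from -1.11 to 0.27, this median rests on few values. The 9 other members, some of which are hypoxia targets too, do not enter it. Among them are Pdk1, Pfkfb3 and Slc2a1, at log2 fold changes of 0.31, 0.59 and -0.12, and Slc16a3, not tested.

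**Figure D4:**
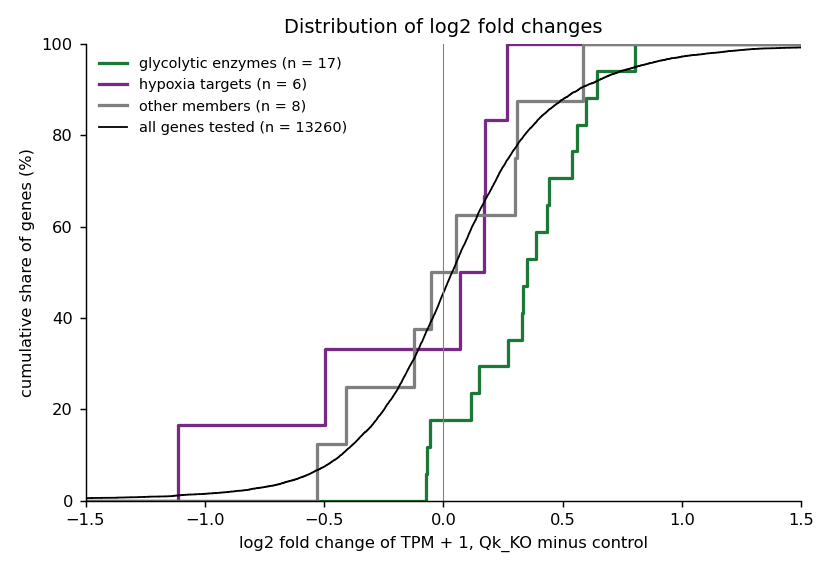
Cumulative share of genes, in percent, by log2 fold change of TPM + 1, Qk_KO minus control, for 17 enzymes, 6 hypoxia targets, 8 other members and all 13260 genes tested. The enzyme curve starts at -0.07 and has its median at 0.35, against a median of 0.04 for all genes, and the hypoxia targets run from -1.11 to 0.27.

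The further genes of these pathways were read from lists of pathway genes. Of 32 further hypoxia targets tested, 0 passed in either direction, with a median log2 fold change of 0.06, and Anxa2, an annexin and the most abundant, was at 324 and 258 TPM in Qk_KO and 426 and 493 TPM in control. Of 16 genes of the HIF system tested, among them its partner subunits and the ubiquitin ligase that destroys it, 0 passed, with a median of 0.02, and Tceb2, elongin B of that ligase and the most abundant, was at 1131 and 1099 TPM in Qk_KO and 1371 and 1384 TPM in control. Of 13 further glycolysis genes tested, 0 passed, with a median of 0.16, and Bpgm, bisphosphoglycerate mutase and the most abundant, was at 78.9 and 105 TPM in Qk_KO and 83.9 and 105 TPM in control. At an unadjusted p of 0.05 in limma the counts in these 3 lists were 6 higher and 4 lower, 2 higher and 1 lower, and 3 higher and 1 lower, against 15.8% higher and 12.6% lower of all genes tested.

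Around pyruvate, 14 genes were tested, of the pyruvate dehydrogenase complex, its regulators, the pyruvate carriers and pyruvate carboxylase. Of these 2 rose, Pcx and Pdk2, 0 fell and 12 did not pass. Neither Pcx nor Pdk2 encodes a core subunit of the complex or a carrier. Over all genes tested 1.83% rose and 1.42% fell. Pcx, pyruvate carboxylase, which in brain feeds carbon into the citric acid cycle of astrocytes, was at 156 and 184 TPM in Qk_KO and 78.7 and 70.7 TPM in control. It averaged 170.4 ± 19.7 TPM in Qk_KO and 74.7 ± 5.62 TPM in control (SD, n = 2 each), a log2 fold change of 1.18 ± 0.12 (SE, limma, Benjamini-Hochberg adjusted p = 0.0269), larger than that of any member that rose. Pdk2, a kinase that inhibits pyruvate dehydrogenase, was at 93.2 and 94.4 TPM in Qk_KO and 66.0 and 59.1 TPM in control, a log2 fold change of 0.58 ± 0.10 (SE, limma, Benjamini-Hochberg adjusted p = 0.0493). The call of Pdk2 was lost with median-ratio scaling and with quantile normalization (adjusted p of 0.0501 and 0.0511 in limma with Benjamini-Hochberg adjustment).

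Against 1.83% of all genes tested called higher and 1.42% lower, 1 of 18 glycogen genes passed as higher and 0 as lower. It was Pygb, the brain form of glycogen phosphorylase that releases glucose units for glycolysis, at 309 and 304 TPM in Qk_KO and 183 and 166 TPM in control, a log2 fold change of 0.81 ± 0.09 (SE, limma, Benjamini-Hochberg adjusted p = 0.0324). In the branch from glycolysis to serine and glycine, 0 of 11 rose and 1 fell, Mthfd2, a mitochondrial enzyme of folate metabolism, at 35.7 and 34.9 TPM in Qk_KO and 58.2 and 55.8 TPM in control (log2 fold change -0.67, SE 0.10, Benjamini-Hochberg adjusted p = 0.0426 in limma). The calls of Pcx, Pygb and Mthfd2 were lost without control replicate 1 and without control replicate 2, with adjusted p between 0.0887 and 0.249 (limma, Benjamini-Hochberg), and without Qk_KO replicate 2, with adjusted p between 0.0528 and 0.0832. Without Qk_KO replicate 1 those of Pygb and Mthfd2 were lost too (0.0750 and 0.0944), and that of Pdk2 was lost when any 1 of the 4 libraries was left out, at adjusted p between 0.104 and 0.275 (limma, Benjamini-Hochberg). All 4 calls were also lost with no filter and without limma's trend, with the adjusted p between 0.122 and 0.139 and between 0.0606 and 0.0906.

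The pentose phosphate pathway, which leaves glycolysis at glucose phosphate, had 0 of 10 genes called, a median log2 fold change of 0.03 and Taldo1, transaldolase, as its most abundant gene at 488 and 506 TPM in Qk_KO and 460 and 420 TPM in control. The citric acid cycle had 0 of 19 genes called and a median of 0.17. Both Qk_KO values lay above both controls for 14 of its 19 genes, against 33.6% of all genes tested. For mitosis genes, read for cycling cells, 4 of 20 rose (Ccnb1, Ccnb2, Bub1b and Kif20a), against 1.83% of all genes tested. All 20 log2 fold changes were above 0, against 54.4% of all genes tested, with a median of 0.99.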

How the data were processed

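RNA was measured by sequencing of poly(A) RNA on Ion Proton in 2 Qk_KO and 2 control libraries. The authors deposited 1 table per library with a TPM value per gene, identified by symbol and Entrez number. The submitters' processing notes name STAR 2.4.1d, RSEM 1.3.0 and the builds mm10 and GRCm38.p4, without their order. TPM keeps no read depth, so intervals rest on the spread between libraries. A TPM is a share, so a change in abundant genes shifts all others, and the median log2 fold change of all genes tested was 0.04.

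The 35857 genes were put on the scale log2(TPM + 1), and the 13260 with a mean of at least 1 TPM were fitted with limma 3.58.1 (lmFit, eBayes with trend) in R 4.3.3, using all 4 libraries and no covariate, and p-values were adjusted over these genes (Benjamini-Hochberg) with calls at 0.05. Values per group are means ± SD. The members and the lists were chosen with earlier results of these data known, so their counts are descriptions. Values per library are given for all members. Among other genes, those named are Qk, up to 4 called genes of each pathway list, and the most abundant gene of a list with no call. A result under this rule is not reported here. Xist, Eif2s3y and the marker genes named fall outside that rule, chosen with their values in view. The procedure was run on 1 set of simulated data with changes and 1 with none, each of 13260 genes. Noise was normal and drawn from limma's own variances after their pooling over genes, so the sets share the assumptions of the fit. The set with changes held log2 changes of 1, 1.5, 2 and 3, on 50 genes each. Of the 50 genes at each size, 74%, 88%, 98% and 96% were recovered, with 20 false calls in that set as a whole. In the set with no change 0 genes were called. The members called as higher changed by 0.60 to 0.80, below the smallest change simulated, so recovery at their size was not examined. Alternatives were other pseudocounts, filters, scalings and variance settings, a block for replicate number, each library left out in turn, and, chosen after seeing the data, cyclic loess and removal of a GC trend. Same-numbered libraries deviated together with r = 0.114 over 2 pairs, and nothing in the labels pairs them. Near copies were searched with blastn, promoter sequences come from RefSeq (GRCm38.p6) and 3′ UTR sequences from GENCODE M21 (GRCm38). Python 3.11.15 was used for the rest.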

Additional observations from a re-analysis of the deposited data

How the results depend on the processing

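Genes called over the whole table numbered 430, and 41 without limma's trend, 649 with a mean of at least 5 TPM, 655 with the GC trend removed, and 0 with no filter, where 4327 passed an unadjusted p of 0.05 in limma. They numbered 4 to 148 when 1 library was left out. With the replicate block 1278 genes and 6 members were called, with Gapdh and Pfkfb3 added to the 4 (limma, Benjamini-Hochberg adjusted p of 0.0340 and 0.0424). The numbers are not known to pair the libraries. Of the 4 called members, 0 were called without trend, with no filter or when 1 library was left out. Unadjusted p of 0.05 in limma was passed without trend by 15 of 31 members, against 3551 of all 13260 genes tested. With no filter it was passed by 16 of 33 members, against 4327 of 21835 genes. With the GC trend removed the enzyme median was 0.26 and the hypoxia target median 0.027. With 1 library left out the enzyme median lay between 0.32 and 0.42, the hypoxia target median between 0.0088 and 0.20, and their difference between 0.13 and 0.40.

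Over members and alternatives, 420 results kept their direction and side of the threshold, 24 lost the threshold, 8 gained it and 12 changed sign. The sign changes were in members near 0. With 1 library left out, the log2 fold change lay between -0.32 and 0.068 for Slc2a1, -0.23 and 0.13 for Slc2a3, -0.17 and 0.057 for Hk2, -0.31 and 0.17 for Aldoc, -0.21 and 0.066 for Pgam1, -0.40 and 0.62 for Eno2, -0.11 and 0.21 for Pfkfb2 and -0.010 and 0.15 for Egln3. The sign turned without Qk_KO replicate 2 for Slc2a1, Hk2, Pfkfb2 and Eno2, without Qk_KO replicate 1 for Slc2a3 and Egln3, without control replicate 1 for Aldoc, and without control replicate 2 for Slc2a3, Hk2, Pgam1 and Pfkfb2. Eno2 was at -0.0091 with the GC trend removed. Fits with 1 library left out assume that the lone library varies like the other group, and the cause of these shifts was not tested. With 2 libraries a group and unknown depth, the smallest log2 fold change called among the members was 0.60.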
